A study of Mus musculus with 12 samples.

Results

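Potassium channels are tetramers or dimers of pore-forming subunits, many of which assemble with accessory subunits that set their gating or their passage to the cell surface. In kidney tubules they return potassium across the basolateral membrane for the sodium pump, carry potassium secretion at the luminal membrane, and set the membrane voltage that drives other transporters. The distal convoluted tubule (DCT), the segment of the thiazide-sensitive sodium-chloride cotransporter, is known for a basolateral potassium conductance of inward rectifiers, through which it senses plasma potassium. The genes described here are all those whose array name begins with Kcn, without Kcnj1, Kcnj10, Kcnj15 and Kcnj16: 81 genes with 117 probes among the 41174 probes of the array. A gene was tested where at least 1 of its probes was well above background, as the scanner software called it, on 4 or more of the 12 arrays. That left 35 of the 81 genes among 17071 genes tested. The other 46 were not tested, and 28 of them were above background on no array.

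The arrays measured total RNA from mouse renal tubules sorted by COPAS, a flow sorter for large objects. From each of 4 mice the study took fluorescent tubules (EGFP+, labelled as DCT), non-fluorescent tubules (EGFP-) and the unselected total (ALL), which gives 4 arrays per fraction. Mice 1 and 3 were female and mice 2 and 4 were male; the labels name no treatment. The labels and design text do not name the promoter that drives EGFP, the strain or the age. Every level below is log2 of the background-corrected signal relative to the upper quartile of that array's probes, so 0 is the upper quartile and each unit is a doubling; levels of different genes come from different probes and are not compared with each other. Differences were tested with limma over all genes, with a Benjamini-Hochberg adjusted p under 0.05 as the threshold. P-values between fractions measure the spread between 4 mice within a fraction, pooled over the 3 fractions. This fit counts the 3 arrays of a mouse as independent, and the mouse as a block is an alternative. In sorted tubules, fewer cells of a type and less RNA per cell cannot be told apart.

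Known markers of the sorted segment matched the labels, and other cell types moved with the sort. All 8 DCT markers, Slc12a3 among them, were higher in EGFP+ than in EGFP-, with a median log2 difference of 6.35 and a summed level of 622 to 796 against 39.8 to 66.7. All 8 proximal tubule markers were lower (summed level 13.95 to 41.3 against 352 to 844), as were all 6 podocyte markers (0.449 to 1.48 against 35.4 to 71.1), all 8 endothelial markers (4.69 to 6.48 against 45.3 to 75.9), 8 of 9 smooth muscle, pericyte and mesangial markers (3.90 to 5.97 against 23.6 to 37.6), 5 of 7 principal cell markers (8.26 to 11.5 against 35.6 to 40.0) and 4 of 6 tested leukocyte markers (0.406 to 0.686 against 5.24 to 14.1). Of 6 thick ascending limb markers 5 were higher and 1 was lower (228 to 297 against 87.4 to 110). Of 6 intercalated cell markers 1 was higher and 1 lower (19.7 to 28.3 against 28.1 to 41.1), of 4 tested nerve and Schwann cell markers 2 were higher and 1 lower (0.547 to 0.724 against 1.03 to 1.68), and the 1 tested urothelial marker did not pass. These lists move with every result on the fractions, and their part in those results was not tested. A marker left out as an outlier on an array adds nothing to that array's sum, so some sums may be too low. The upper quartile lay between 922 and 2270 signal units on the 12 arrays, lowest in ALL and EGFP- of mouse 4, and between 23 and 38 of the 81 genes were above background on an array.

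Kcn genes differed between EGFP+ and EGFP- in both directions, and which direction held more of them depended on the background correction. Of the 35 tested, 8 were higher, 17 were lower and 10 did not pass, while over all genes 58.2% passed, 32.3% higher and 25.9% lower. With normexp correction, described below, 9 were higher and 6 lower. The median fitted log2 difference was -0.93, against 0.11 over all genes. With the dimmer fraction raised to the detection floor (the dimmest signal on an array that still counted as well above background), a setting added after the data were seen, the median was -0.41, against 0.11, and differences of at least 4-fold numbered 4 higher and 10 lower, against 4.41% and 10.5% of all genes. The groups of 4 arrays did not overlap for 24 of the 35. Of the 25 that passed, 24 had a level in ALL between those in EGFP+ and EGFP-. The shares of all genes that did so were not counted, so both counts only describe these genes. The higher genes were Kcnn2, Kcnk1, Kcnj11, Kcnq1, Kcnh2, Kcne2, Kcnab3 and Kcnj9. The lower genes that were above background on at least 2 EGFP+ arrays were Kcne1, Kcnk5, Kcnj8, Kcnk6, Kcnab1, Kcnab2 and Kcnt1; the other 10, Kcnj12, Kcnf1, Kcnc2 and Kcng2 among them, were above background on at most 1 EGFP+ array and are not ranked. Of the 17 lower genes, 9 were above background on no EGFP+ array by the probe tested, 3 on some and 5 on all 4; of the 8 higher genes, 4 were above background on no EGFP- array and 2 on all 4.

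**Figure D1:**
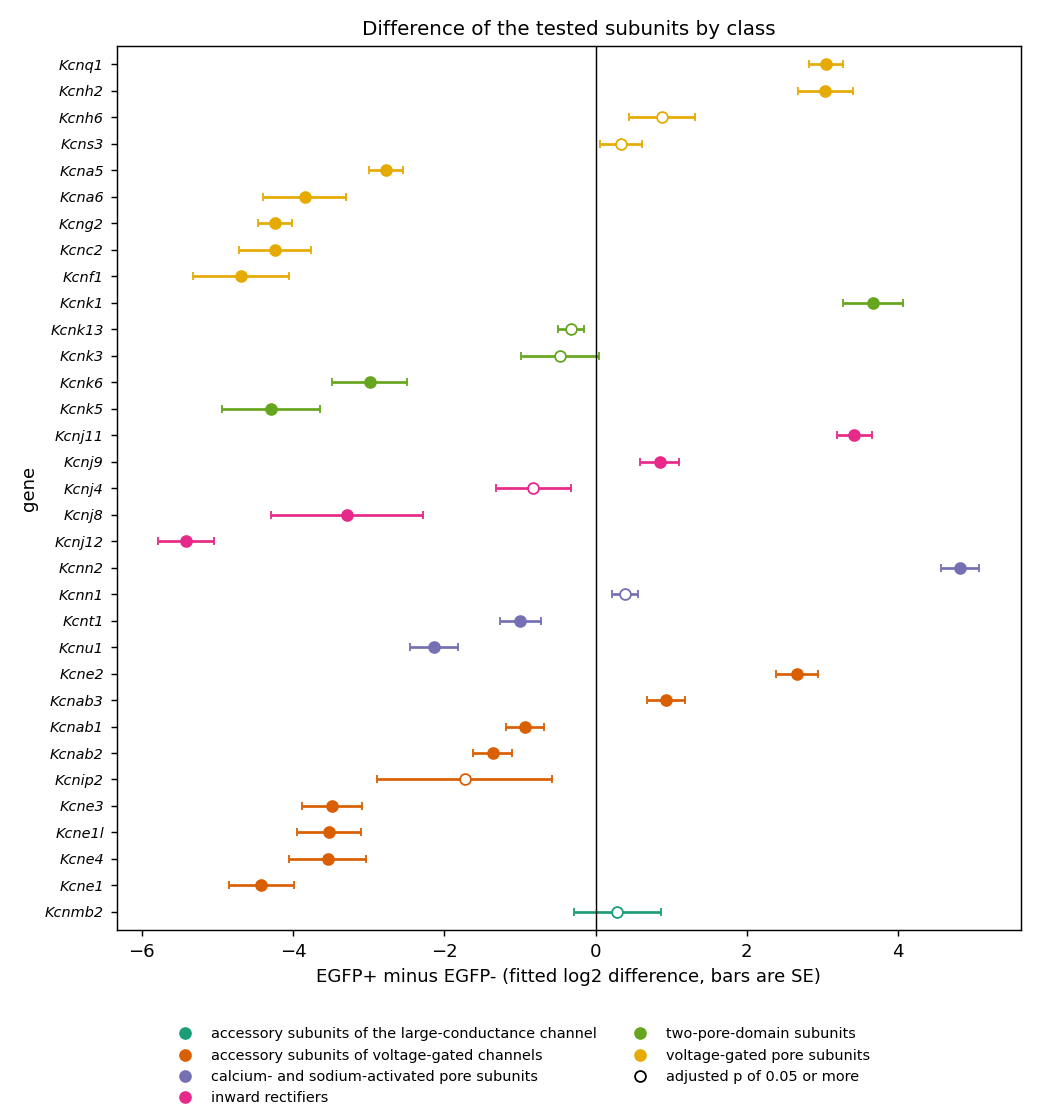
Fitted difference between the EGFP+ and EGFP- fractions (x axis, log2; bars are the standard error of the fit over 12 arrays) for 33 of the 35 tested subunits (y axis), coloured by class; filled points passed the adjusted threshold. Each class with more than 1 tested gene holds points on both sides of 0. Points of genes below background in a fraction, such as Kcnj12 in EGFP+, are fitted values that have no order, and the text gives them as bounds.

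The promoters of 3 higher and 3 lower genes are shown, so that the 2 directions can be set beside each other. They have the largest fitted differences among the genes whose promoters were used here. Kcnn2, Kcnj11, Kcnq1 and Kcne1 were not among those genes. For Kcnj12 and Kcnf1, below background on most EGFP+ arrays, the fitted value served only for this choice. Each line gives the 250 bases before the annotated start, 5′ to 3′ on the gene's strand, from RefSeq on GRCm38.p6; for Kcne2, which has 2 starts there, the first by position is shown. Capitals mark matches, on either strand, to GGGCGG (the GC box), GTTAAT (a half-site of HNF1, a factor of tubule epithelium), AAGGTCA (a half-site of oestrogen-related receptors), GCCNNNGGC (the core of the AP-2 site) and TATAAA (the TATA box).
Kcnk1, chr8:125994852-125995101, plus strand: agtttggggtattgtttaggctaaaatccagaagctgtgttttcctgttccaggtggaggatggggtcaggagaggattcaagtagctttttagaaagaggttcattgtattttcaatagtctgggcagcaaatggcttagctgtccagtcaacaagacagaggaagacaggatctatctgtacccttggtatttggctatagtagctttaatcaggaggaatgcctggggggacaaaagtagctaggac
Kcnh2, chr5:24329592-24329841, minus strand: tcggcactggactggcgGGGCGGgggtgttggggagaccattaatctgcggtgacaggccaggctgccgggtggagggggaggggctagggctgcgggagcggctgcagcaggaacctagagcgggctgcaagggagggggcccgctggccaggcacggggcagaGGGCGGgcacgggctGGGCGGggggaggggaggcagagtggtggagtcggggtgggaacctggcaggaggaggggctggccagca
Kcne2, chr16:92292139-92292388, plus strand: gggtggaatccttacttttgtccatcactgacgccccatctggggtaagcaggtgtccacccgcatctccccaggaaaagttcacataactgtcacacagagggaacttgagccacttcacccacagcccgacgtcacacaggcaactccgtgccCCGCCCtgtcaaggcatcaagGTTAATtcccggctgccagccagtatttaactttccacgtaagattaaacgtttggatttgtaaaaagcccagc
Kcnj12, chr11:61065554-61065803, plus strand: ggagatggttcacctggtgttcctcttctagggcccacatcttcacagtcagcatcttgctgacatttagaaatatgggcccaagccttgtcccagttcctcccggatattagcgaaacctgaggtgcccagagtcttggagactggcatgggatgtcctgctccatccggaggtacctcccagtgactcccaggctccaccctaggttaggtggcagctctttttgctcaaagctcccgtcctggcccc
Kcnf1, chr12:17176889-17177138, minus strand: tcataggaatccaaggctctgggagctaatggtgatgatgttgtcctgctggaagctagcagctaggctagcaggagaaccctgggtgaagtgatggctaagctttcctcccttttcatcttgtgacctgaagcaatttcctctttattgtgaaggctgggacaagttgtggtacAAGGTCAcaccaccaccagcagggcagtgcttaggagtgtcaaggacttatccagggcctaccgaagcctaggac
Kcnk5, chr14:20181783-20182032, minus strand: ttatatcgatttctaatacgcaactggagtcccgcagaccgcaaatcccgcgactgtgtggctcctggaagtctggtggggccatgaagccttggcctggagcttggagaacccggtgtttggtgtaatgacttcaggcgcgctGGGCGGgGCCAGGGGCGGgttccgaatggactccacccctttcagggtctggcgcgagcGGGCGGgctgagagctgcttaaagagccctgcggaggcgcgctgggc
Kcnh2 held 3 GC boxes, and Kcne2 held 1 GC box and 1 HNF1 half-site. Kcnf1 held 1 AAGGTCA, and Kcnk5 held 3 GC boxes, of which 1 overlaps its 1 match to the AP-2 core. Kcnk1 and Kcnj12 held none of the 5 motifs in this window. The table held 58 of the 81 Kcn genes, with 80 starts. The GC box lay in 2 of 5 starts of the higher genes and 6 of 20 starts of the lower genes, against 32.7% of all 32851 starts. GTTAAT lay in 1 of 5 and 1 of 20 (6.43% of all), AAGGTCA in 0 and 1 (4.08%), GCCNNNGGC in 0 and 2 (13.7%), and TATAAA in 1 and 0 (12.4%). These matches describe the letters of the window and not the binding of a factor.

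Voltage-gated pore subunits open on depolarisation and include the delayed rectifiers. Of 36 genes on the array 11 were tested; 2 were higher in EGFP+, 5 were lower and 4 did not pass. Kcnq1 encodes the slowly activating KvLQT channel of heart and epithelia (probe at chr7:143236225-143236284, mm8). Its levels in mice 1 to 4 were 4.03, 4.05, 4.13 and 3.58 in EGFP+, 1.87, 1.72, 1.95 and 1.11 in ALL, and 1.19, 1.09, 0.94 and 0.38 in EGFP-. All 4 EGFP+ arrays lay above all 8 others, and the difference from EGFP- was 8.26-fold (95% interval 5.87 to 11.6; adjusted p = 3.1e-07). Kcnh2, the pore of the rapid delayed rectifier (ERG; probe at chr5:23831435-23831707), gave -2.66, -3.08, -2.35 and -3.11 in EGFP+, -4.95, -5.49, -4.52 and -6.06 in ALL, and -5.42, -6.26, -5.20 and -6.49 in EGFP-. Here too EGFP+ did not overlap the others. No EGFP- array was above background for Kcnh2, so its EGFP+ level is given as a bound: it was at least 5.39-fold higher than in EGFP- (adjusted p = 2.0e-05). Such bounds set the mean of the brighter group against the dimmest signal that still counted as well above background on each array of the other, or the dim probe's own signal where that was larger.

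Among the 5 lower voltage-gated subunits, Kcnf1 is an electrically silent subunit that modifies other voltage-gated pores (probe at chr12:17198201-17198260). It gave -5.52, -6.14, -7.34 and -3.92 in EGFP+, where 1 array of 4 was above background, and -0.32, -1.56, -0.71 and -1.59 in EGFP-, a fitted 25.7-fold difference (adjusted p = 5.2e-05). Raising its dim EGFP+ arrays to the floor of the bounds put their mean at -4.95 against -1.04 in EGFP-. Levels in ALL were -0.64, -2.03, -0.88 and -2.06, close to EGFP- in each mouse. Kcnc2, a fast delayed rectifier of the Shaw family, was above background on no EGFP+ array and gave -5.93, -5.84, -6.09 and -5.90 there, -1.03, -2.86, -1.28 and -2.33 in ALL, and -0.88, -2.85, -0.92 and -2.16 in EGFP-; it was at least 11.7-fold lower (adjusted p = 1.2e-05). In ALL and EGFP- of Kcnc2, both females lay above both males. Kcng2, another silent subunit, gave -6.65, -6.36, -6.76 and -6.92 in EGFP+ and -2.0, -2.56, -2.46 and -2.71 in EGFP-, with ALL between -3.15 and -2.17; it was at least 7.06-fold lower (adjusted p = 2.6e-08). Kcna6 and Kcna5 are Shaker-type subunits. Kcna6 gave -6.44, -6.50, -6.77 and -5.90 in EGFP+ and -2.22, -3.78, -1.43 and -2.79 in EGFP- (at least 6.49-fold lower, adjusted p = 7.9e-05). Kcna5 gave -7.46, -7.33, -7.01 and -7.17 against -4.12, -4.42, -4.20 and -5.14 (at least 1.72-fold lower, adjusted p = 7.2e-07). Neither was above background on any EGFP+ array, and no EGFP+ array of the 5 genes reached an EGFP- array.

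Kcns3, a silent subunit, and Kcnh6, an ERG-family pore, were among those that did not pass. Kcns3 had means of -2.06 ± 0.46 in EGFP+ and -2.40 ± 0.36 in EGFP- (SD, n = 4 each; adjusted p = 0.33, and 0.047 with the mouse as a block), and its groups overlapped. Of the voltage-gated subunits not tested, Kcna1, Kcna2, Kcna3 and Kcna4 were above background on no array, each by 1 probe, and Kcnc4 on 3 of 12.

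Of 12 accessory subunits of voltage-gated channels on the array 9 were tested, with 2 higher and 6 lower. Over all genes 32.3% were higher and 25.9% lower. With normexp correction Kcne1 alone of the 6 still passed as lower. The KCNE family are single-span partners that retune pores such as KCNQ1, and its tested members went both ways. Kcne2 gave -4.83, -4.49, -4.58 and -4.59 in EGFP+ (probe at chr16:92186769-92186828), -6.62, -7.95, -7.44 and -7.04 in ALL, and -6.73, -7.62, -7.61 and -7.20 in EGFP-. It was above background on all 4 EGFP+ arrays and on none of the 8 others, and its EGFP+ level was at least 1.62-fold that of EGFP-. Kcne2 was the only tested Kcn gene above background in 1 fraction alone, the one where it is high, so its adjusted p of 5.3e-06 is a description. Kcnh2, Kcnj11 and Kcnj9 reached the 4 arrays of the filter only with their EGFP+ arrays, where they are high. Kcna5, Kcne4 and Kcnu1 reached them only with their EGFP- arrays, where they are high. The adjusted p-values of these genes against EGFP- are descriptions too. Kcne1, the minK partner of KCNQ1 (probe at chr16:92237359-92237418), gave -5.54, -4.29, -4.14 and -6.31 in EGFP+, -0.47, -0.30, -0.89 and -1.13 in ALL, and -0.35, -0.44, -0.69 and -1.13 in EGFP-. It was above background on 2 EGFP+ arrays and a fitted 21.4-fold lower there (95% interval 11.1 to 41.1; adjusted p = 3.2e-06), or 17.1-fold with the dim arrays at the floor, with no overlap. So Kcnq1 and Kcne2 were higher in EGFP+ and Kcne1 was lower. Kcne4 gave -7.71, -7.65, -7.27 and -7.38 in EGFP+ against -3.33, -3.69, -3.61 and -5.21 in EGFP- (at least 2.45-fold lower, adjusted p = 8.5e-05). Kcne1l, the array's name for the KCNE5 gene, gave -4.95, -6.08, -5.83 and -6.22 against -1.46, -3.10, -1.76 and -2.65 (at least 7.40-fold lower, adjusted p = 1.8e-05). Kcne3 gave -7.69, -7.20, -6.98 and -5.81 against -2.45, -3.77, -3.62 and -3.91 (at least 3.53-fold lower by this probe, adjusted p = 1.2e-05); its second probe, above background on 1 EGFP+ array, was also lower. None of these 3 was above background on an EGFP+ array by the probe tested, and none of their EGFP+ values reached the EGFP- range.

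Beta subunits of Shaker-type channels are cytosolic proteins that bind NADPH. Kcnab3 was higher in EGFP+, at -3.61, -3.58, -3.44 and -3.42 against -4.38, -4.70, -3.94 and -4.74 in EGFP- (1.90-fold, 95% interval 1.29 to 2.80; adjusted p = 0.0078), with no overlap. Kcnab2 was lower, at -4.18, -4.30, -3.82 and -3.86 against -2.27, -3.23, -2.31 and -2.90 (2.57-fold, 95% interval 1.74 to 3.79; adjusted p = 0.00067). Kcnab1 was lower by a fitted 1.90-fold (95% interval 1.30 to 2.79; adjusted p = 0.0075), with overlapping groups: -4.37, -4.39, -3.28 and -4.48 against -3.35, -3.37, -3.11 and -2.98. Mouse 3 was the high EGFP+ array of Kcnab1. Within slides Kcnab1 was the only one of the 25 genes past the threshold whose sign differed on 1 of the 3 slides. Without mouse 2 the adjusted p of Kcnab3 was 0.059, and without mouse 4 that of Kcnab1 was 0.066. The KChIP genes, calcium-binding partners of Kv4 channels, were above background on no array apart from Kcnip2, which is described with the sexes.

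Calcium- and sodium-activated pores couple ion entry to repolarisation. Kcnn2, a small-conductance calcium-activated channel (SK2), had the largest fitted increase of any Kcn gene: 0.88, 0.89, 1.15 and 0.81 in EGFP+, -2.15, -2.50, -2.04 and -2.79 in ALL, and -3.54, -3.50, -3.79 and -4.71 in EGFP-. The 3 fractions did not overlap, the difference from EGFP- was 28.2-fold (95% interval 19.1 to 41.7; adjusted p = 2.4e-08), and a second Kcnn2 probe gave a log2 difference of 4.72 beside 4.82. Kcnn1, its SK1 relative, did not pass, at -2.65 ± 0.24 in EGFP+ and -3.04 ± 0.25 in EGFP- (SD, n = 4 each; adjusted p = 0.070); it was higher with the mouse as a block (0.0093) and with normexp (0.023). Kcnt1, a sodium-activated channel, was 2.0-fold lower in EGFP+ (95% interval 1.32 to 3.01; adjusted p = 0.0078), from -3.25, -3.08, -3.45 and -4.09 against -2.20, -2.52, -2.22 and -2.95. Its second tested probe differed by -0.82 (adjusted p = 0.11 over probes), and without mouse 3 the adjusted p was 0.053. Kcnu1, known from sperm, was above background on no EGFP+ array and at least 1.44-fold lower there (adjusted p = 0.00011). The large-conductance channel pore Kcnma1 and its beta subunits Kcnmb1 and Kcnmb4 were above background on no array; Kcnma1 had 1 probe. Kcnmb2, the tested beta subunit, had -4.37 ± 0.70 in EGFP+ and -4.66 ± 0.90 in EGFP- (SD, n = 4 each; adjusted p = 0.69). Kcnn3 was above background on 1 array and Kcnn4 on 3, neither in EGFP+.

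Inward rectifiers pass potassium more readily into than out of the cell, and include the ATP-sensitive channels. Of 10 on the array 5 were tested, 2 higher, 2 lower and 1 not passing. Kcnj11, the Kir6.2 pore (probe at chr7:45965791-45965850), gave -3.75, -4.05, -3.71 and -3.60 in EGFP+, -5.87, -6.91, -5.79 and -6.39 in ALL, and -6.93, -7.27, -7.52 and -7.09 in EGFP-. It was above background on 4, 1 and 0 arrays of these fractions, and at least 2.92-fold higher in EGFP+ than in EGFP- (adjusted p = 1.6e-07, a description as for Kcne2). Kcnj8, the Kir6.1 pore known from pericytes and smooth muscle (probe at chr6:142522706-142522765), went the other way, with -4.72, -2.44, -4.38 and -3.44 in EGFP+, -2.19, 0.79, -2.01 and 1.30 in ALL, and -2.0, 0.83, -1.99 and 1.34 in EGFP-. The 9.76-fold difference had a wide interval (2.12 to 44.9; adjusted p = 0.015), the males lay above the females in every fraction, and without mouse 4 the adjusted p was 0.052. The sulfonylurea receptors that pair with these pores were in the list of partners. Abcc9 (SUR2) was above background on no EGFP+ array, at -7.42, -7.40, -7.22 and -6.78 against -2.76, -2.18, -2.75 and -2.02 in EGFP-, at least 7.09-fold lower (adjusted p = 1.3e-08). Abcc8 (SUR1) gave -6.73, -4.44, -7.25 and -7.37 in EGFP+, where 1 array was above background, against -5.10, -5.07, -4.95 and -5.15 in EGFP-. The fit called it lower (adjusted p = 0.044), but with the dim arrays at the floor its EGFP+ mean was -5.01 against -5.07, so no fold is given. In EGFP+ the pore Kcnj11 was higher and the receptor gene Abcc9 lower.

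Kcnj12 (Kir2.2, a strong rectifier; probe at chr11:60886778-60886836) was clear of background in ALL and EGFP- alone. It gave -7.47, -7.55, -7.14 and -7.26 in EGFP+, -1.31, -2.75, -1.81 and -2.58 in ALL, and -1.12, -2.54, -1.55 and -2.55 in EGFP-. No EGFP+ array was above background and all 8 others were; the gene was at least 9.95-fold lower in EGFP+ (adjusted p = 1.8e-07). Kcnj9, a G-protein-gated subunit (Kir3.3), was higher in EGFP+ (adjusted p = 0.015, a description as for Kcne2), at -5.02, -5.02, -4.88 and -4.31 against -6.02, -6.03, -5.49 and -5.08. No EGFP- array of this probe was above background, and the probe was at least 1.43-fold brighter in EGFP+. Without mouse 1 its adjusted p was 0.051, and without mouse 2 it was 0.063. A second Kcnj9 probe, above background on 1 array and not tested, went the other way, with means of -7.03 in EGFP+ and -6.27 in EGFP-. Kcnj4 (Kir2.3) did not pass (adjusted p = 0.18), and Kcnj2 (Kir2.1) was above background on 1 ALL array. The 4 rectifiers outside the gene set were measured on the same arrays and include the known basolateral and luminal channels of the distal nephron. Kcnj10 had a log2 difference of 4.16 and Kcnj1, the luminal ROMK channel, 3.46 (adjusted p = 9.5e-09 and 4.7e-08), Kcnj15 had -5.49 (adjusted p = 1.6e-06), and Kcnj16, the Kir5.1 partner of Kcnj10, had 0.26 (adjusted p = 0.29).

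K2P subunits carry the leak currents that set resting voltage. Of 11 on the array 5 were tested, 1 higher and 2 lower. Kcnk1 (TWIK1; probe at chr8:128916471-128916530) gave 2.33, 2.26, 2.41 and 2.23 in EGFP+, 0.07, -0.64, 0.06 and -0.96 in ALL, and -0.42, -2.06, -0.72 and -2.25 in EGFP-. Its EGFP+ arrays lay close together and above all others, at 12.7-fold over EGFP- (95% interval 7.0 to 23.1; adjusted p = 7.5e-06). Kcnk5 (TASK2, known from proximal tubule; probe at chr14:18931158-18931217) gave -4.05, -1.60, -4.40 and -2.48 in EGFP+, 0.58, 1.34, 0.21 and 2.16 in ALL, and 0.68, 1.34, 0.42 and 2.23 in EGFP-. It was 19.6-fold lower (95% interval 7.33 to 52.6; adjusted p = 0.00013) with no overlap. Kcnk6 (TWIK2) gave -4.68, -2.59, -4.33 and -5.22 in EGFP+ against -0.64, -1.30, -1.04 and -1.89 in EGFP-, 7.94-fold lower (95% interval 3.71 to 17.0; adjusted p = 0.00029). In EGFP+ both Kcnk5 and Kcnk6 were highest in mouse 2, the array whose summed proximal tubule markers were also the highest of that fraction, at 41.3 against 13.95, 15.2 and 30.4 in mice 1, 3 and 4; the part of these cells in the values was not tested. Kcnk3 had -6.12 ± 0.89 and -5.65 ± 1.07 (SD, n = 4 each; adjusted p = 0.46), and Kcnk13 had -4.54 ± 0.18 and -4.22 ± 0.25 (SD, n = 4 each; adjusted p = 0.12, and 0.035 with the mouse as a block). Kcnk2 was above background on no array and Kcnk4 on 2.

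**Figure D2:**
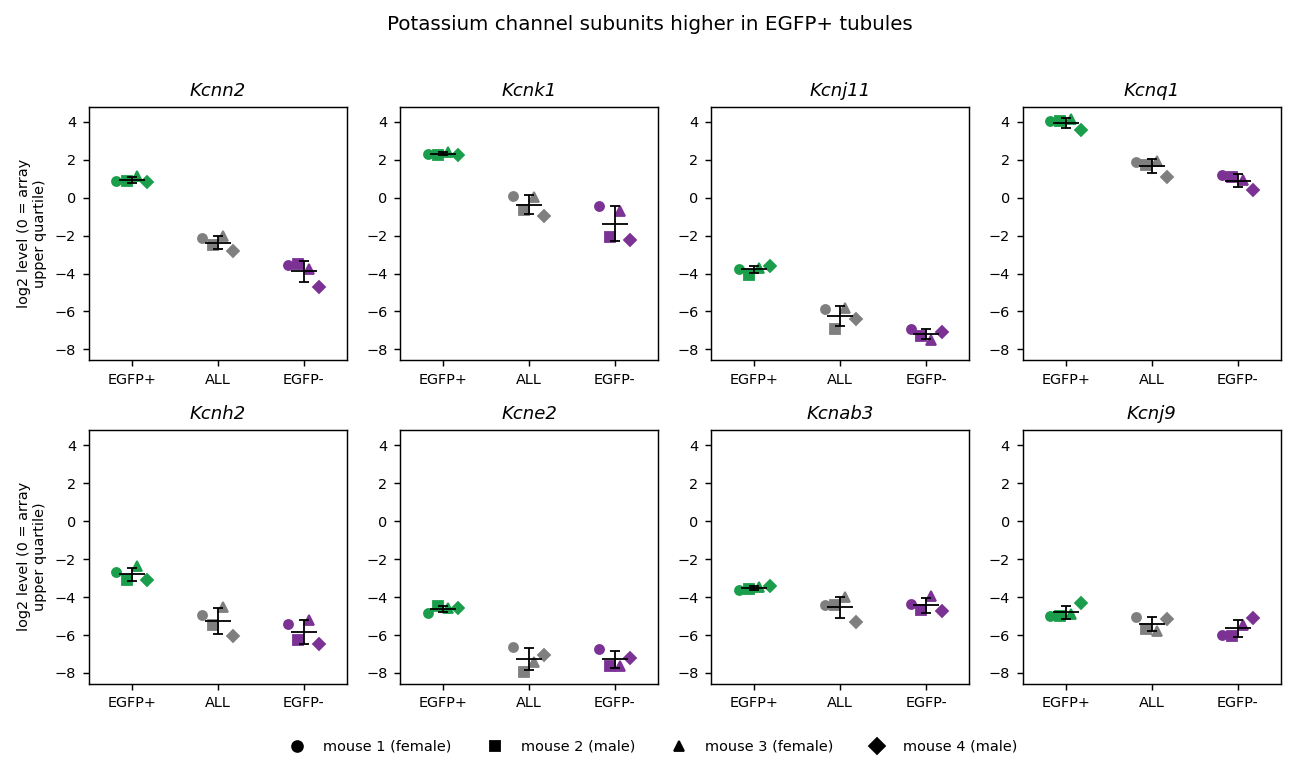
Level of the 8 subunits higher in EGFP+ (y axis, log2 relative to the array's upper quartile) in each fraction (x axis); each symbol is 1 mouse, and the dash and bars are the mean and SD of 4 mice. The EGFP+ symbols lie above every EGFP- symbol in all 8 panels, and Kcnn2 falls in steps from a mean of 0.93 in EGFP+ to -2.37 in ALL and -3.89 in EGFP-.

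**Figure D3:**
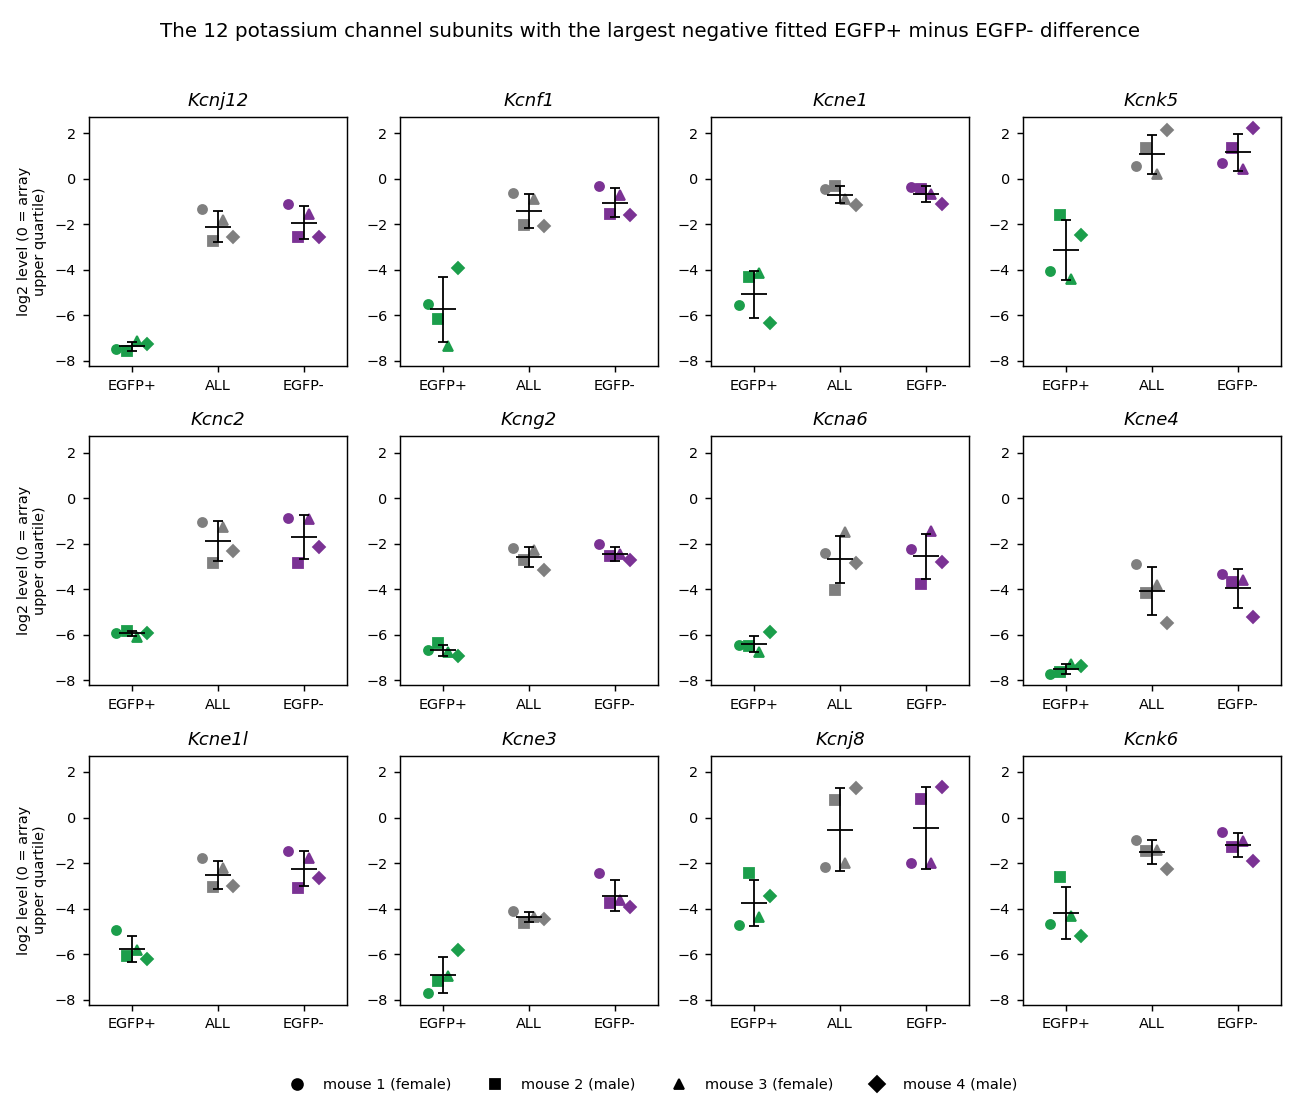
Level of the 12 subunits with the largest negative fitted difference (y axis, log2 relative to the array's upper quartile) in each fraction (x axis); each symbol is 1 mouse, and the dash and bars are the mean and SD of 4 mice. The EGFP+ symbols lie below every EGFP- symbol in all 12 panels, and Kcnj8 and Kcnk5 spread by sex in each fraction.

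Many of the lower calls rested on the background correction. With normexp correction of the mean signal, an alternative that adds an offset of 50, 6 of the 17 remained past the threshold, against 7 of the 8 higher genes. The log2 differences of these 6 shrank to -3.31 for Kcnk5, -2.10 for Kcnf1, -2.09 for Kcne1, -1.46 for Kcnj12, -1.34 for Kcnc2 and -1.22 for Kcnk6. Those of Kcnj12 and Kcnc2 were smaller than the bounds given above, as were those of Kcne1l, Kcng2, Kcna6, Kcne3 and Kcne4. Kcna5 and Kcnu1, also given as bounds, changed sign. The other 11 did not pass: Kcnj8 was at -2.06, Kcne1l at -0.75, Kcng2 at -0.66, Kcna6 at -0.57, Kcne3 at -0.37, Kcnab2 at -0.29, Kcne4 at -0.13 and Kcnt1 at -0.04, and Kcna5, Kcnab1 and Kcnu1 turned to 0.31, 0.25 and 0.59. Among the higher genes Kcnn2 was at 3.83, Kcnk1 at 3.35, Kcnq1 at 2.86, Kcnh2 at 1.99 (smaller than its bound), Kcnj11 at 1.73 and Kcne2 at 1.61, and Kcnj9 had an adjusted p of 0.078. The share of higher genes among Kcn calls was 60% with normexp and 32% in the main analysis, against 61.8% and 55.6% over all genes. Centring each array on its median moved the median of all genes from 0.11 to 0.26, and that share was 37%; all 25 calls remained there.

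Against ALL, the unselected tubules that also hold the DCT, the picture was close but not identical gene by gene, and the 2 comparisons share their EGFP+ arrays. Again 8 genes were higher and 17 lower of 35, where 55.3% of all genes passed, 30.3% higher and 24.9% lower. Of the 25 genes past the threshold against EGFP-, 22 also passed against ALL with the same direction. Kcnj4, Kcna5, Kcne4 and Kcnu1 reached the filter only with their ALL arrays, where they are higher than in EGFP+. Kcne2, Kcnh2, Kcnj11 and Kcnj9 reached it only with their EGFP+ arrays, where they are high. The adjusted p-values of these genes against ALL are descriptions, and the counts include them. Kcnh6 passed here (2.23-fold higher, adjusted p = 0.042), with EGFP+ at -3.18, -2.97, -2.78 and -2.35 above all of ALL at -3.59, -4.51, -3.80 and -4.01. It did not pass without mouse 1, 2 or 3 (adjusted p = 0.065, 0.10 and 0.13) or with normexp (0.47). Its EGFP- value of -2.20 in mouse 4 lay above the EGFP+ arrays, and the comparison with EGFP- gave an adjusted p of 0.11. Kcnj4 was lower than in ALL (adjusted p = 0.039) with overlapping groups, and did not pass without mouse 2, 3 or 4 (adjusted p = 0.051, 0.096 and 0.11) or with normexp (0.91). Kcnj8 did not pass without mouse 4 (adjusted p = 0.061). Kcnab1, Kcnt1 and Kcnj9 did not pass against ALL (adjusted p = 0.051, 0.068 and 0.066), and with the mouse as a block all 3 did (0.049, 0.0023 and 0.019), as did Kcnk13 (0.011, and 0.051 without the block).

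Between ALL and EGFP-, which differ by the presence of the fluorescent tubules, few genes of any kind differed. Kcnn2 was the only Kcn gene past the threshold, with a log2 difference of 1.52 (adjusted p = 0.011), and none was lower; over all genes 1.39% passed in either direction, 1.39% higher and 0.00586% lower. Kcnj11 and Kcnk1 had differences of 0.96 and 0.99 (adjusted p = 0.093 and 0.81), and Kcnq1 had 0.76 (adjusted p = 0.25). With the mouse as a block 2 genes passed, Kcnn2 and Kcnq1. Without mouse 1, 2 or 3 no Kcn gene passed, and without mouse 4 there were 2.

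Kcnj8, Kcnk5 and Kcnip2 differed between male and female mice, tested on 1 mean per mouse over its 3 fractions, with 2 mice of each sex. For Kcnip2 this is a description, for the reason given below. Of all genes 1.27% passed this test. Kcnj8 was higher in males by 2.61 on the log2 scale (adjusted p = 0.0093). Within ALL it was 8.84-fold higher in males (adjusted p = 0.0016), within EGFP- 8.43-fold (adjusted p = 0.0017) and within EGFP+ 3.05-fold (adjusted p = 0.085), in a fit of sex within fraction added after the data were seen. That fit passed 9.5% of all genes in ALL, 7.46% in EGFP- and 1.01% in EGFP+. It counted the 3 arrays of a mouse as independent, with 2 mice of each sex, so its adjusted p-values are descriptions. It also called Kcnk1, Kcnc2 and Kcnj12 lower in males, by -0.87, -1.44 and -1.11 in ALL (adjusted p = 0.015, 0.012 and 0.021) and -1.58, -1.61 and -1.21 in EGFP- (0.0011, 0.0077 and 0.017), Kcnh2 lower in ALL by -1.04 (0.028), and Kcne1l lower in EGFP- by -1.27 (0.039). Kcnh2 passed in EGFP- too (0.029), where no array was above background. No Kcn gene passed within EGFP+. Smooth muscle, pericyte and mesangial markers summed to 29.9 and 30.1 in ALL of the females and 20.3 and 28.3 in the males. Their part in the Kcnj8 values was not tested. Kcnk5 was higher in males by 1.59 (adjusted p = 0.047), by 2.19 in EGFP+, 1.35 in ALL and 1.23 in EGFP-, none of which passed within its fraction (adjusted p = 0.053, 0.070 and 0.10). The summed proximal tubule markers in EGFP+ were 13.95 and 15.2 in females and 30.4 and 41.3 in males. In ALL they were 482 and 543 in females, 122 in male mouse 2 and 856 in male mouse 4. The ALL array of mouse 2 had the most outlier spots (516), and a marker left out there adds nothing to the sum. Its 122 is therefore not read as a low proximal tubule content. The part of these markers in the difference was not tested.

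Kcnip2, which encodes KChIP2, was above background in the females alone, in 2 ALL and 2 EGFP- arrays. Female mice 1 and 3 gave -2.91 and -3.06 in ALL and -2.68 and -2.96 in EGFP-, and male mice 2 and 4 gave -5.92 and -6.62 in ALL and -7.19 and -6.79 in EGFP-. The sexes did not overlap in these fractions. Kcnip2 was at least 4.76-fold higher in females in ALL (adjusted p = 0.0080) and at least 5.02-fold in EGFP- (adjusted p = 0.0030). Both adjusted p-values are from the fit of sex within fraction, which counted the arrays of a mouse as independent. Over mouse means the male minus female difference was -2.48 (adjusted p = 0.019). Kcnip2 reached the 4 arrays of the filter only with arrays of the females, where it is high. All 3 of these adjusted p-values are therefore descriptions. In EGFP+ all 4 mice were below background, at -7.29, -7.28, -6.01 and -5.98. The podocyte and endothelial lists were also higher in females (podocyte sums of 51.5 and 61.1 against 26.1 and 34.95 in ALL; endothelial sums of 56.2 and 64.9 against 37.0 and 43.1), and their part in the Kcnip2 values was not tested. No Kcn gene had an EGFP+ to EGFP- difference that depended on sex after adjustment by limma; 8 had an unadjusted p under 0.05, and 0% of all genes passed (2057 at an unadjusted p under 0.05). With no filter on dim probes Kcnj8 was the only Kcn gene past the sex threshold, with normexp there were 11, among them Kcnj8 and Kcnk5 but not Kcnip2, and with the mean of a gene's probes Kcnk5 did not pass. The shares of all genes past the sex threshold in these settings were not counted, so these counts only describe the Kcn genes.

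**Figure D4:**
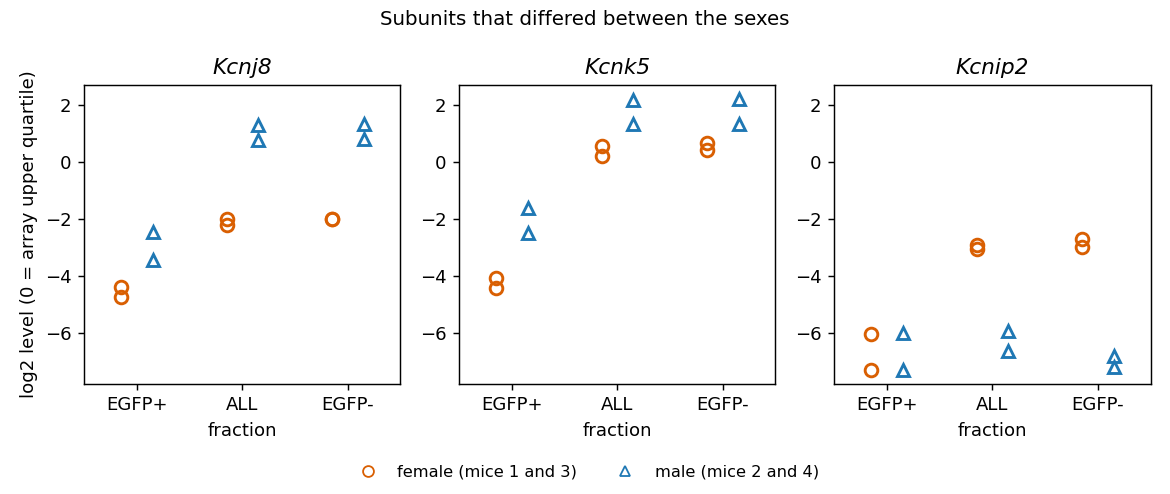
Level of Kcnj8, Kcnk5 and Kcnip2 (y axis, log2 relative to the array's upper quartile) in each fraction (x axis) of 2 female and 2 male mice; each symbol is 1 mouse. Males lie above females for Kcnj8 and Kcnk5 in all 3 fractions, while Kcnip2 separates in ALL and EGFP- and lies below background in every mouse in EGFP+.

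Genes that work with potassium channels but carry other names were described from a list of 25 partners and relatives, chosen like the classes with earlier results of these data known. Of 19 tested, 7 were higher in EGFP+ than in EGFP-, 3 were lower and 9 did not pass, with a median log2 difference of 0.14 against 0.11 over all genes. Lrrc52, which encodes an auxiliary gamma subunit of the large-conductance channel family, gave -0.87, -1.78, -1.33 and -1.66 in EGFP+, -4.67, -5.43, -4.59 and -6.54 in ALL and -7.39, -7.11, -7.21 and -6.64 in EGFP-. It was at least 15.1-fold higher in EGFP+ (adjusted p = 1.6e-07), on arrays where no probe of Kcnma1 was above background. Cntnap2, which clusters Shaker-type channels on axons, was at least 2.54-fold higher (adjusted p = 3.7e-07). Neither Lrrc52 nor Cntnap2 was above background on an EGFP- array. Both may have met the filter only with their EGFP+ arrays, where they are high, so their adjusted p-values are taken as descriptions. The kinases Wnk1, Stk39 and Wnk4, which act on the chloride cotransporters of this segment, had log2 differences of 4.21, 3.76 and 3.43. Trpm4, a calcium-activated cation channel, and Pacsin3, an adaptor of membrane trafficking, were also higher, at 2.12 and 1.92. Sgk1, the aldosterone-induced kinase, was lower at -2.33, beside Abcc9 and Abcc8 described above.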

How the data were processed

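Agilent one-colour arrays of the mouse (design 014868, Cy3) measured 12 samples. Per the file headers the scanner output came from Feature Extraction 9.5.3.1, with probe positions on mm8 (NCBI 36); the deposited values used are background-corrected signal intensities on a linear scale, with the mean and local background intensities for an alternative. The series' value table was not used. Control spots and outlier spots were left out, spots of a probe averaged, log2 taken and each array's 75th percentile subtracted. A probe was kept when well above background on 4 arrays, and a gene was read by its kept probe with the highest mean. Gene names were updated through RefSeq tables (24375 probes by accession, 6301 by symbol, 2426 by synonym; 8072 kept the array's name), members by the array's name.

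limma 3.58.1 in R 4.3.3 fitted 1 mean per fraction over the 12 arrays. On simulated data over 16626 genes for EGFP+ against EGFP- it recovered 58 of 100 genes changed by 1 and 90 of 100 changed by 2 (log2), with 10 false calls. The simulated arrays were independent, without correlation within a mouse, and 200 genes were changed. These figures therefore do not give the recovery or the false calls on the real arrays. Sex was tested on 4 mouse means and on 4 differences. The 3 arrays of a mouse come from the same animal: deviations from the fraction means correlated at 0.23 to 0.82 within a mouse and -0.68 to 0.59 between mice. The mouse as a block is an alternative and is given beside the named results whose call it changed. Other alternatives were normexp, quantile and median scaling, other filters, the mean of probes, the slide (3 slides), 2 fractions alone, a 2-fold minimum and leaving out each mouse. Array number limits the precision.

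Named are the Kcn genes past the threshold with the same sign in all 4 mice, up to 12 in each direction, a list of subunits with a described place in kidney or vessels, and single genes of small counts chosen after their values were seen. Kcna10 and Kcnj13 are in that list and no probe used carried their name. The members and the lists were chosen with earlier results of these data known. The annotation of exons on mm8 was not used here. Values of some single genes are not reported here, though the counts include them.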

Additional observations from a re-analysis of the deposited data

Results flagged for a closer look

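Among the 87 groups of 4 arrays formed by the 29 tested genes named, 2 had an array standing apart by Dixon's criterion (a gap to its neighbour, as a share of the group's range, over the 95% critical value), and both belong to Kcnab1, the beta subunit of Shaker-type channels. Its level in EGFP+ was -3.28 in mouse 3, above the others at -4.48 to -4.37. In ALL it was -3.08 in mouse 2, above the others at -3.69 to -3.59. Chance marks about 1 in 20 such groups.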

How the results depend on the processing

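Of the 8 higher and 17 lower calls in EGFP+ against EGFP-, all kept their direction under every alternative run, apart from Kcna5 (0.31), Kcnab1 (0.25) and Kcnu1 (0.59) with normexp. Normexp gave 6 lower genes against EGFP-, 3 higher and 6 lower against ALL, and 11 genes that differed by sex, where the main counts were 17, 8, 17 and 3. Over all genes normexp passed 45.8% against EGFP- and 35.1% against ALL, and its share for sex was not counted. With no filter on dim probes 1 gene differed by sex. The count of genes higher in ALL than in EGFP-, 1 in the main fit, was 2 with quantile normalization, 2 with the replicate block, 0 with only the 2 fractions compared, 2 without the ALL and EGFP- arrays of mouse 4 (added after seeing the data), and 0 to 2 when each mouse was left out. With the replicate block (paired by mouse) the counts against EGFP- were 11 higher and 19 lower. It lost no call, and Kcnn1, Kcns3 and Kcnk13 were among those it added. Over all genes 65.4% passed with this block, against 58.2% in the main fit. Calls against EGFP- that passed with all mice and failed with 1 left out were those of Kcnj9, Kcnab3, Kcnt1, Kcnab1 and Kcnj8, and against ALL Kcnh6, Kcnj4 and Kcnj8 were among them. Signal over background limits the members near the detection limit: for these a fold is a bound under the main background correction. Of the 46 untested genes, 2 were called with no filter: Kcns1 higher, above background on 3 EGFP+ arrays and no other, and Kcnn4 lower.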

Other observations

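Probes that the array names otherwise, and whose accession now carries a Kcn symbol, were outside the gene set. The probe of Kcnh4, an ELK-family voltage-gated pore, had a log2 difference of -1.34 between EGFP+ and EGFP- (adjusted p = 0.0039). The probe of Kcng1, a silent subunit, had 0.63 (adjusted p = 0.25), from -3.03, -2.93, -4.63 and -3.76 in EGFP+ against -4.53, -2.92, -5.01 and -4.40 in EGFP-, and was above background on all 12 arrays. A further probe that now carries the name Kcnj15 had -4.12, in the direction of that gene's own probe at -5.49.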
